A study of Drosophila melanogaster with 12 samples.

Results

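Testes of su(Hw) null males of the genotype 2/v were compared with testes of males of the stock BL15598, which carries a wild-type su(Hw) gene. The comparison rests on 6 of the 12 arrays of the study, the 3 titled 2/v testis and the 3 titled BL15598 testis, and the 3 arrays of Canton S and the 3 of the other null, A2663/2, served to sort its differences. RNA of 3-day-old males, pooled from about 100 pairs of testes for each sample, was hybridised to Affymetrix Drosophila Genome 2.0 arrays, and the labels call the 3 samples of a genotype biological replicates. BL15598 males are y[1] w[67c23] and carry the element P{EPgy2} EY02782 in Amt. Males of 2/v carry su(Hw)[2] over su(Hw)[v] together with y[1], w[67c23], ct[6] and f[1], and no Amt insertion is listed for them. The y and w mutations are thus common to both sides of the comparison, whereas su(Hw), ct, f and the Amt insertion all differ between them. A2663/2 males have su(Hw)[A2663] over su(Hw)[2] with y[1], w[67c23] and the Amt insertion of BL15598, so both nulls carry allele 2. Canton S is a laboratory wild type for which no mutation is listed. Since the backgrounds of 2/v and BL15598 differ, a difference between them can belong to the stocks or to su(Hw).

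Su(Hw) is a zinc-finger DNA-binding protein known for binding the insulator of the gypsy retrotransposon, where it blocks enhancers from promoters beyond it. The alleles ct[6] and f[1] are gypsy insertions whose visible phenotypes depend on Su(Hw). In the ovary the protein is known as a repressor of genes that are otherwise used in neurons, and its loss makes females sterile while males stay fertile.

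The deposited value of a probe set is a signal on a linear scale, and tests were made on its log2. A probe set was called where limma's adjusted p lay under 0.05, with the Benjamini-Hochberg adjustment over all 18769 probe sets tested, and every adjusted p is of that fit over all 12 arrays unless another is named. A gene is represented by its brightest probe set that has 1 gene symbol, which gave 11982 genes. Folds are ratios of geometric means over 3 arrays. The control probe sets of the array had a median signal of 20.4, and where an array of the dimmer side lay below that level the fold is given as a lower bound, with such arrays set to 20.4. Array medians ran from 190.2 to 219.6 signal units in BL15598, 196.0 to 199.0 in Canton S, 211.3 to 238.3 in A2663/2 and 216.8 to 241.8 in 2/v. No array stood apart from its genotype.

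The signal of su(Hw) was 38.7, 19.2 and 70.0 in the 3 2/v arrays and 1409.8, 1544 and 1223 in the 3 BL15598 arrays. The groups lay far apart, with 1 2/v array below the control level, and su(Hw) was at least 36.4-fold lower in 2/v (log2 difference -5.22, SE 0.401, adjusted p = 3.64e-05). The sources used here do not say which stretch of the transcript its probes cover, or whether the alleles spare it. The genes that mark the stocks did not pass the test. For the ammonium transporter gene Amt the log2 difference was -0.50 (adjusted p = 0.545), for y, a gene of cuticle pigmentation, -0.46 (adjusted p = 0.455), for the homeobox gene ct -0.39 (adjusted p = 0.531), and for f, an actin-bundling protein of bristles, 0.70 (adjusted p = 0.655). No probe set carried w or RpII15 as its only symbol.

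Germline markers of the testis were all measured, and the sum of the 9 signals was 70953 to 79486 in 2/v and 60179 to 81920.0 in BL15598. Of these, aly was called higher and sa lower in 2/v. Tissues that can be dissected with the testis were present at uneven levels. The 9 accessory gland markers summed to 37319.9 to 75947 in 2/v and 28319 to 52060.1 in BL15598, overlapping ranges in which no marker was called. Muscle sheath markers (20612 to 21135 against 19492 to 25567, with Mlc2 higher and Tm2 lower among the 5 measured, neither called without 2/v replicate 1), fat body markers (10493 to 10721 against 8598 to 11984, with Lsp2 called higher among the 6), ejaculatory duct markers and markers of hub and cyst cells overlapped likewise. The summed signals of the 6 hemocyte markers did not overlap, with 1433 to 1709 in 2/v and 1146 to 1219 in BL15598. The sums were 1126 to 1391 in Canton S and 1280 to 1692 in A2663/2, and srp alone of the 6 markers was called. Midgut markers stayed dim, at sums of 46.7 to 165 and 24.4 to 102. No marker of any list lay below the control level in all 6 arrays, and the part of other tissues in the differences below was not tested. In such bulk samples, fewer cells of a type and less RNA per cell cannot be told apart.

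Between 2/v and BL15598, 1501 of 11982 genes (12.5%) were called, 823 higher (6.87%) and 678 lower (5.66%) in 2/v, and 716 of them differed at least 2-fold. Over probe sets the count was 1997 (10.6%). The split by direction depends on how arrays are scaled. As deposited, 54.8% of called genes were higher in 2/v, against 34.6% when the median of every array was set to the same level and 47.9% after quantile normalization. That centring moved the median of all genes from 0.01 to -0.15 on the log2 scale. Counts also moved with the arrays used. Without 2/v replicate 1 the called probe sets went from 1997 to 1328, and a fit of the 6 arrays alone called 1077.

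Canton S sorted the 1501 genes into 4 kinds, by calls in the same fit. Against Canton S, 1456 genes (12.2%) were called in 2/v. In 590 genes (39.3% of the 1501, 4.92% of all genes) the call was in the same direction as against BL15598, so that its level lay outside both wild types. These were 351 genes higher (2.93%) and 239 lower (1.99%). Canton S and BL15598 differed in 1370 genes (11.4%). In 447 genes (29.8% of the 1501, 3.73% of all) Canton S differed from BL15598 the same way as 2/v did and was not called against 2/v, so that BL15598 stood apart from both. A further 45 genes had a 2/v level between the wild types, called against each. The other 419 (27.9%) were called against BL15598 and could not be placed. The first kind is counted from contrasts that share the 2/v arrays, and the second from contrasts that share the BL15598 arrays. Centring the arrays changed the higher share of the first kind from 59.5% to 32.8%, quantile normalization changed it to 48.9%, while the higher share of the second kind was 52.8%, 48.6% and 52.8% under the 3 scalings.

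**Figure D1:**
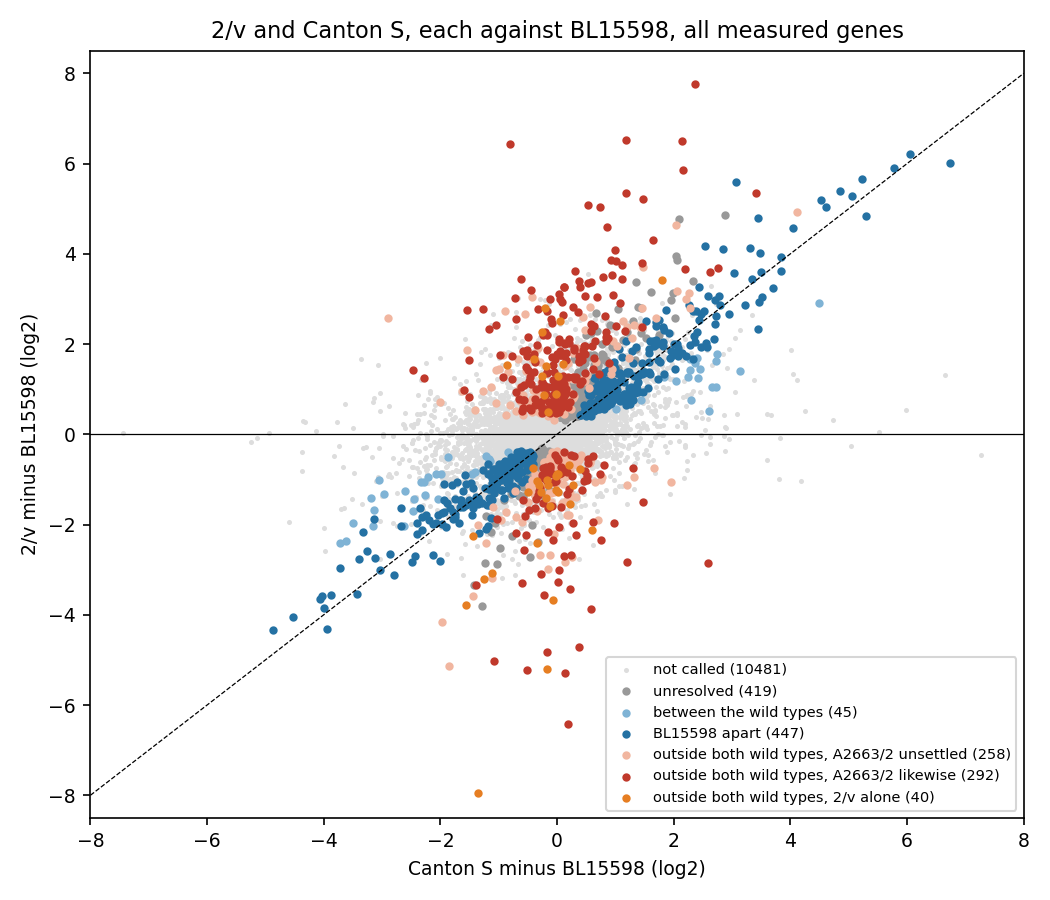
Each of 11982 genes by its log2 difference between Canton S and BL15598 (x axis) and between 2/v and BL15598 (y axis), coloured by kind of call with the number of genes in brackets. The 447 genes in which BL15598 stood apart lie along the dashed line of equal differences, and the 292 genes in which both nulls left both wild types lie off it, Or22b at the top among them.

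A2663/2 divided the 590 genes further. It differed from BL15598 in 979 genes (8.17%) and from 2/v in 135 (1.13%), 48 of them higher (0.401%) and 87 lower (0.726%) in 2/v. In 292 of them (209 higher, 1.74% of all genes, and 83 lower, 0.693%) A2663/2 was also called the same way against both wild types. In 40 (13 higher, 0.108%, and 27 lower, 0.225%) 2/v alone stood apart, since A2663/2 was called against neither wild type and 2/v was called the same way against A2663/2. The remaining 258 had A2663/2 in neither state. In genes higher in both nulls the median log2 difference between 2/v and BL15598 was 1.61, and in the genes lower in both it was -1.32. A call of this contrast is part of how the class is defined, so the medians describe the size of the differences only. A check that shares no array with the comparison is A2663/2 against Canton S, in which 864 genes were called higher (7.21%) and 422 lower (3.52%). Of the 823 genes higher in 2/v than in BL15598, 269 were higher in A2663/2 than in Canton S (32.7% of the first list and 31.1% of the second), and 46 were lower. Among the 678 lower genes, 120 were also lower in A2663/2 than in Canton S (17.7% and 28.4%), and 75 were higher. Allele 2 is common to both nulls, and the Amt insertion to A2663/2 and BL15598, so these samples are not independent in genotype.

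Among genes higher in both nulls was Or22b, an olfactory receptor of antennal neurons. Its signal was 1305, 764 and 883 in 2/v and 3.19, 2.56 and 10.5 in BL15598. All BL15598 arrays lay below the control level, so that 2/v was at least 46.9-fold higher (log2 difference 7.77, SE 0.799, adjusted p = 0.000243). Canton S (5.97, 51.7 and 37.7) was dim as well, and A2663/2 (779, 425 and 819.8) did not pass the test against 2/v (2/v minus A2663/2 0.57, adjusted p = 0.928). ND-51L2, a paralog of a complex I subunit of mitochondria, read 4935, 5092 and 5096 in 2/v and 66.4, 19.5 and 131 in BL15598, at least 89.6-fold apart (log2 difference 6.51, SE 0.694, adjusted p = 0.000299). BobA, of the Bearded family that modulates Notch signalling, read 1762, 1512 and 1423 in 2/v and 48.2, 44.6 and 25.8 in BL15598, 40.9-fold apart (log2 difference 5.35, SE 0.233, adjusted p = 1.45e-06), with Canton S in between at 351, 415 and 459. In every class of call, no called gene had overlapping arrays of 2/v and BL15598. The calls rest on these same arrays, and the share of all genes without overlap is not given here. The genes named by class were also picked without such overlap, so it is no separate support. CG6282, CG13038 and CG13675, genes known here by number only, were higher by at least 68.3-fold, at least 34.0-fold and 57.9-fold, and a second probe set of CG13675 was called the same way.

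Among the genes lower in both nulls, lncRNA:CR40465, a long non-coding RNA, fell furthest. Its signal was 50.2, 28.9 and 80.0 in 2/v against 4323, 4449 and 3869 in BL15598, 86.2-fold lower (log2 difference -6.43, SE 0.308, adjusted p = 2.76e-06). In A2663/2 it read 323, 339 and 248, below both wild types and above every 2/v array (2/v minus A2663/2 -2.62, adjusted p = 0.00363). CG9801 had the same order with the nulls further apart (2/v minus A2663/2 -4.14, adjusted p = 8.65e-06). Its 2/v arrays read 55.7, 51.7 and 38.1 and its BL15598 arrays 1649, 1885 and 2107, 39.1-fold apart (log2 difference -5.29, SE 0.173, adjusted p = 2.25e-07), whereas A2663/2 read 975, 753 and 828. CG4712, one of the brightest genes of the set, fell from 17347, 19818 and 21379 in BL15598 to 568, 701 and 812 in 2/v (log2 difference -4.82, SE 0.180, adjusted p = 5.55e-07) and to 2844, 2935 and 4102 in A2663/2. In these 3 genes every 2/v array lay below every A2663/2 array and every A2663/2 array below every BL15598 array. OS9 (at least 22.4-fold lower in 2/v) and CG10257 (at least 8.84-fold) did not pass the test between the nulls (adjusted p = 0.791 and 0.0581).

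The 40 genes of 2/v alone included DIP-delta, a cell-surface immunoglobulin protein that pairs with Dpr proteins at synapses. Its signal was 252, 208 and 226 in 2/v and 8217, 9234 and 7908 in BL15598, 37.0-fold lower (log2 difference -5.21, SE 0.110, adjusted p = 3e-08). Canton S (7639, 7594 and 7232) and A2663/2 (6806, 7489.9 and 6708) were bright as well, and every one of those 9 arrays lay far above the 2/v arrays. A second, dim probe set of DIP-delta, with means at or below the control level in all genotypes, was not called. CG9825 read 26.05, 2.46 and 8.57 in 2/v, about the control level or below, and 1929, 2136 and 2009 in BL15598, at least 91.3-fold apart (log2 difference -7.95, SE 0.661, adjusted p = 5.87e-05). Its levels in Canton S (787, 806 and 786) and A2663/2 (866, 571 and 902) overlapped each other below BL15598. CG33272 was 76.2, 42.3 and 65.0 in 2/v and 769, 685 and 823 in BL15598 (log2 difference -3.67, SE 0.234, adjusted p = 1.32e-05). Meltrin, a metalloprotease of the ADAM family, read 213, 226 and 190.0 against 1133, 1294 and 934 (log2 difference -2.41, SE 0.219, adjusted p = 0.000109). Its other 2 probe sets did not pass (log2 -0.05 and 0.94), and the mean over its probe sets was not called between 2/v and BL15598.

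Of the genes in which 2/v alone was higher, Cpr67Fa2, a cuticle protein gene, had signals of 775, 571 and 597 in 2/v and 100.4, 89.4 and 86.1 in BL15598, 6.99-fold apart (log2 difference 2.81, SE 0.153, adjusted p = 5.56e-06). CAHbeta, a beta-class carbonic anhydrase, read 503, 485 and 457 in 2/v and 118, 73.9 and 117 in BL15598 (log2 difference 2.26, SE 0.202, adjusted p = 9.9e-05). The metalloprotease gene tok, a relative of tolloid, read 1166, 1451 and 1463 against 489, 399 and 491 (log2 difference 1.56, SE 0.126, adjusted p = 4.8e-05). In all 3 the arrays of Canton S and A2663/2 lay among or near those of BL15598, and the highest of these 9 arrays lay below the lowest 2/v array. CG8301 (5.72-fold) was higher by the same pattern. CG1317 was 2.91-fold higher in 2/v than in BL15598 (1804, 1703 and 1801). There Canton S (840, 911 and 1233) and A2663/2 (1411, 1488 and 1207) lay below BL15598, and Canton S was called against it (adjusted p = 0.00915).

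The calls of this small class were not equally firm. Over 20 alternative fits, the difference between 2/v and A2663/2 was called in every fit that tested it for 20 of the 40 genes, among them DIP-delta, CG9825, CG33272, Meltrin, CG31886, Cpr67Fa2, CAHbeta, tok, CG8301 and CG1317. The 20 fits left out the mean over all probe sets of a gene, in which Meltrin was not called between 2/v and BL15598. The call between the nulls is also only 1 condition of the class. CG31886 met all conditions in 5 of 21 fits, CG1317 in 18 and Meltrin in 19. The other 20 of the 40 genes lost the call between the nulls in 1 or more fits. Those chosen as the greatest changes that lost it were Muc30E, a mucin gene (at least 10.2-fold lower than in BL15598), Eig71Ef, an ecdysone-induced gene (at least 6.02-fold lower), dsx-c73A (at least 7.27-fold lower), CG43312, CG34001 and CG12538. The difference between the nulls was called in 7 of 20 fits for dsx-c73A. Among genes picked out after their values were seen, Naxd, an NAD(P)HX dehydratase (log2 difference -1.27), Nup43, a nuclear pore subunit (-1.23), and 5PtaseI, an inositol polyphosphate phosphatase (1.30), kept it throughout. The class as a count is fragile, since leaving out 1 array of 2/v took it from 53 probe sets to 31 or 32, and 1 array of A2663/2 to between 30 and 38. Likewise the probe sets called between 2/v and A2663/2 numbered 174 (0.927%), 94 to 104 without 1 2/v array and 92 to 107 without 1 A2663/2 array.

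**Figure D2:**
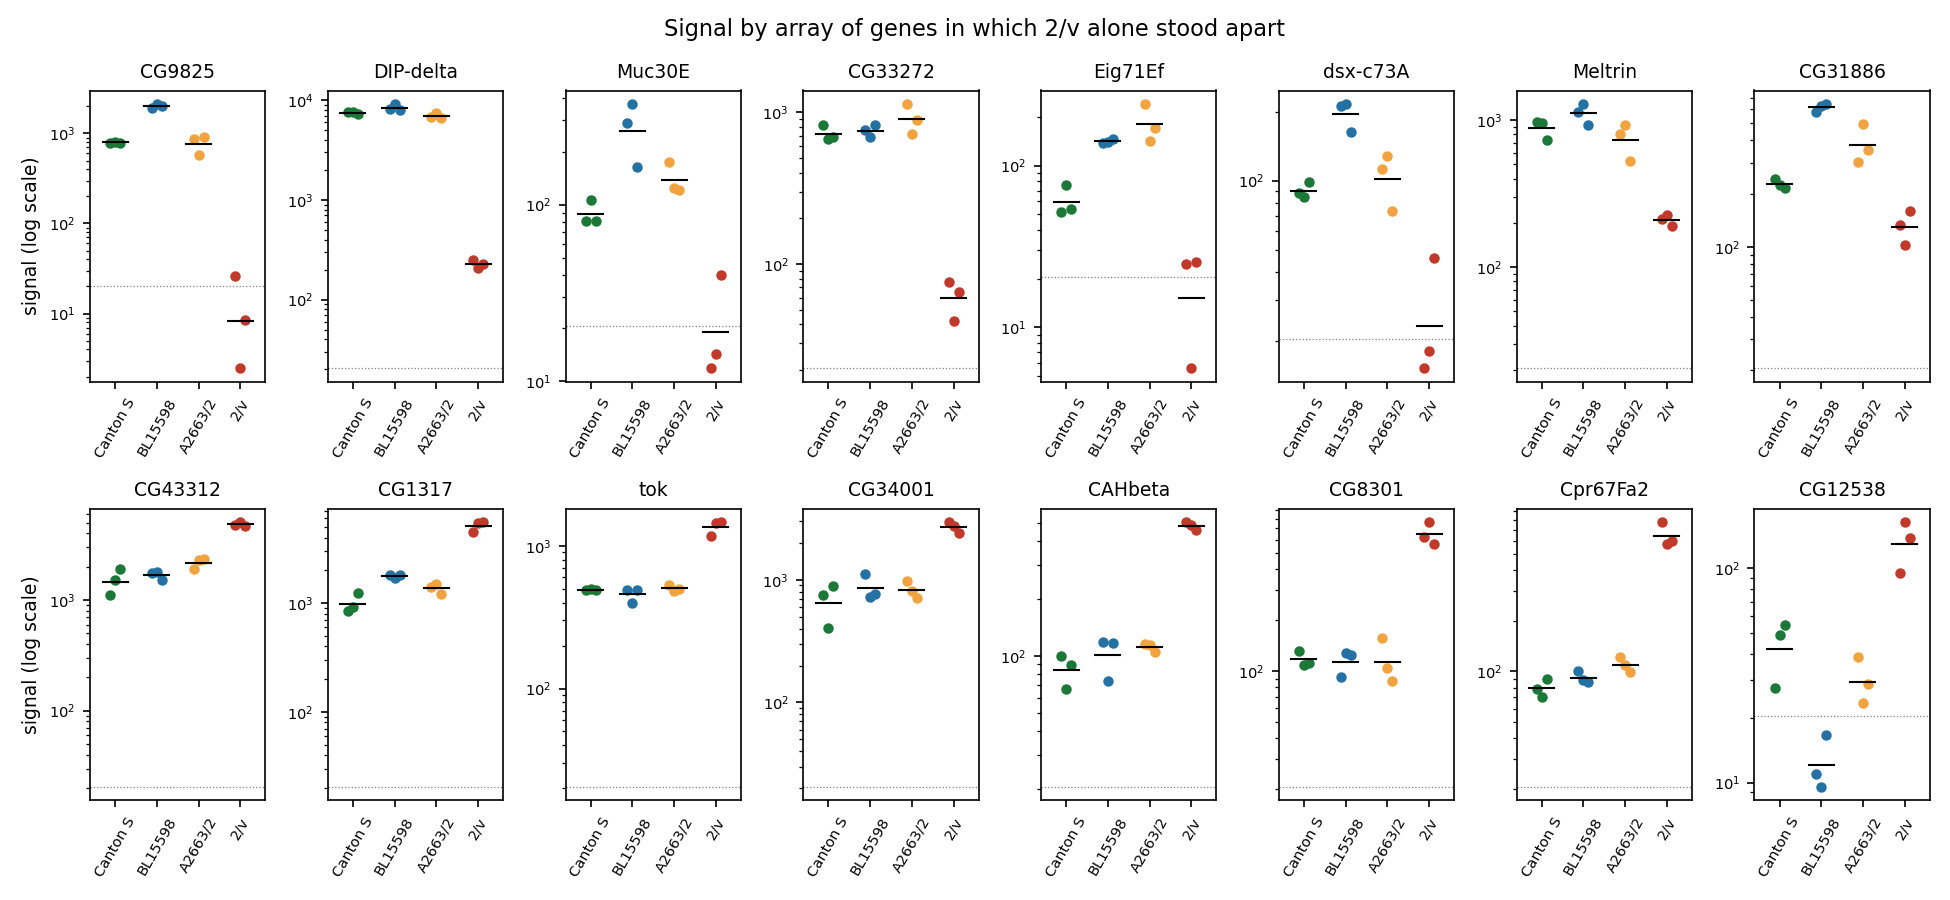
Signal on a log scale in each of the 12 arrays, by genotype, for the 16 genes of 2/v alone with the greatest differences, with bars at the geometric means and the control level of 20.4 as a dotted line. The 3 red 2/v points lie below all other points in the upper row, as DIP-delta shows from 208 to 252 against 6708 or more, and above them in the lower row.

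In the 447 genes in which BL15598 stood apart, a difference from 2/v was matched by Canton S, whose su(Hw) is wild type. Acyp, an acylphosphatase gene, read 13361, 13757 and 14579 in 2/v, 12565, 13454 and 12199 in Canton S and 12784, 13049 and 12057 in A2663/2, against 57.6, 251 and 867 in BL15598. BL15598 was the single dim genotype and varied among its own arrays, and 2/v was 59.8-fold higher (log2 difference 5.90, SE 0.742, adjusted p = 0.000851). CG42792 read 393, 324 and 382 in 2/v and 5.62, 5.62 and 3.70 in BL15598, where all arrays lay below the control level, and was at least 17.9-fold higher (log2 difference 6.22, SE 0.172, adjusted p = 1.15e-07). Obp57a, an odorant-binding protein gene, was at least 38.7-fold higher in 2/v (log2 difference 5.65, SE 0.350, adjusted p = 1.13e-05), with Canton S at 758, 624 and 619. CG3397 (at least 22.1-fold), CG31897 (at least 19.4-fold), CG30325 (39.0-fold), CG42322 (at least 14.2-fold) and CG13130 (at least 8.96-fold) behaved alike, though in CG13130 Canton S lay between (25.8, 49.0 and 25.9) and a second probe set of CG42322 was not called.

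Genes bright in BL15598 alone were led by CG13946, at 13226, 15473 and 24036 in BL15598 and 825, 606 and 1211 in 2/v, 20.1-fold lower (log2 difference -4.33, SE 0.327, adjusted p = 3.23e-05). Canton S (631, 596 and 529) and A2663/2 (653, 1263 and 1057) lay near 2/v. CG7214 (at least 18.6-fold lower in 2/v) and CG8837 (16.6-fold) were lower than in BL15598 in every array of the other 3 genotypes. CG6337 (at least 3.02-fold) lost its call without 2/v replicates 1 or 3 or BL15598 replicates 2 or 3. In 4 others A2663/2, which carries the listed background of BL15598, stayed above 2/v. The receptor gene mthl6, of the methuselah-like family, read 962, 897 and 1421 in BL15598, 608, 672 and 716 in A2663/2, 59.6, 76.3 and 88.7 in 2/v and 46.8, 101 and 65.0 in Canton S, with A2663/2 not called against BL15598 (adjusted p = 0.22) and 2/v 14.5-fold lower than BL15598 (log2 difference -3.86, SE 0.286, adjusted p = 2.91e-05). The channel gene ppk19, of the degenerin and epithelial sodium channel family, followed the same order, at 795, 1044 and 797 in BL15598 and 73.4, 66.3 and 77.4 in 2/v (log2 difference -3.59, SE 0.285, adjusted p = 4.38e-05), and so did CG13461 and CG5225, though CG5225 was called in A2663/2 against BL15598 (adjusted p = 0.0145). Of all 447 genes, A2663/2 was called the same way as 2/v against BL15598 in 289 (64.7%), was called against Canton S and not against BL15598 in 58, and was called against neither in 100.

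**Figure D3:**
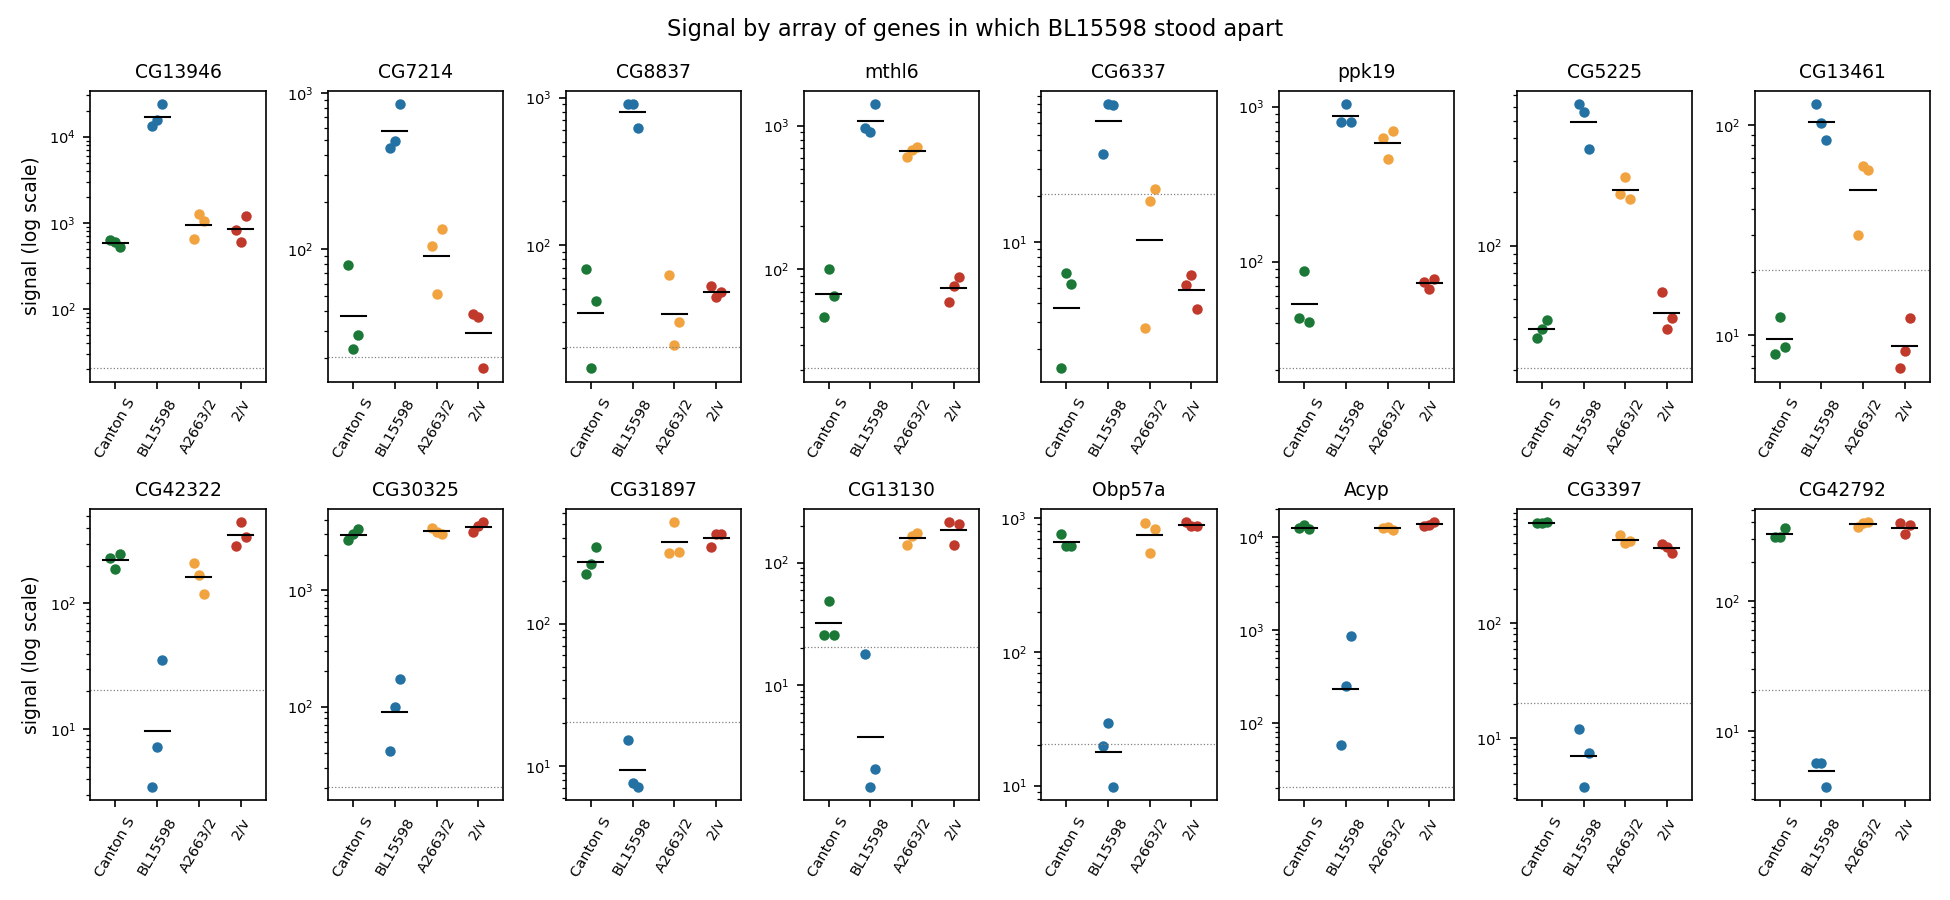
Signal on a log scale in each of the 12 arrays for the 16 genes with the greatest differences in which BL15598 stood apart, with geometric means as bars and the control level of 20.4 dotted. The blue BL15598 points lie above the red 2/v and green Canton S points in the upper row and below them in the lower row, and in mthl6 and ppk19 the A2663/2 points lie near BL15598.

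The 45 genes between the wild types included Cyp6d5, a cytochrome P450 gene, with 7169.9, 7267 and 6524 in 2/v, 1911, 2339 and 2356 in BL15598 and 11178, 10857 and 9888 in Canton S (log2 difference 1.67, SE 0.138, adjusted p = 5.57e-05). Drsl3, a drosomycin-like peptide gene, read 278, 298 and 311 in 2/v, 1139, 1086 and 698 in BL15598, 106, 115 and 103 in Canton S and 1530.5, 1395 and 1467 in A2663/2. In Drsl3 the nulls fell on opposite sides of BL15598, although A2663/2 was not called against it (adjusted p = 0.0685), and 2/v was 3.22-fold lower than BL15598 (log2 difference -1.69, SE 0.173, adjusted p = 0.000241).

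Genes of neuronal function were taken from 5 lists. Over all genes, 6.87% were called higher and 5.66% lower. An unadjusted limma p under 0.05 was far more common, in 3162 of 11982 genes (26.4%), 1673 higher and 1489 lower. List counts at that level, here and below, are to be read beside this share. Of the 19 measured genes of synaptic vesicles and release, 4 were higher and 0 lower in 2/v, with a median log2 difference of 0.47 against 0.01 over all genes, and with 6 and 2 at an unadjusted p under 0.05. Rph, rabphilin of synaptic vesicles, read 2373, 2004 and 3149 in 2/v and 400.2, 364 and 517 in BL15598, 5.83-fold higher (log2 difference 2.54, SE 0.198, adjusted p = 3.85e-05). The arrays of Canton S (349, 396 and 435) overlapped those of BL15598, and the arrays of A2663/2 (2681, 2247 and 2134) overlapped those of 2/v. The vesicle protein gene nSyb, synaptobrevin, was 2.25-fold higher (log2 difference 1.17, SE 0.162, adjusted p = 0.00152). Rim, of the active zone, was 1.75-fold higher by the brightest of 3 probe sets, but BL15598 stood apart there and the mean over its probe sets was not called. Sytalpha was also called higher. It lost the call with centred arrays, after quantile normalization, with the 6 arrays alone and without any 1 of the 2/v arrays. With each array centred, the vesicle list had 3 higher and 2 lower genes, and after quantile normalization 3 and 1.

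Of 17 measured genes of axon guidance and synaptic adhesion, 3 were higher and 0 lower (median 0.17, 6 and 0 at an unadjusted p under 0.05). For this list and those that follow, the shares of all genes were 6.87% higher and 5.66% lower. Nrx-1, the presynaptic adhesion protein neurexin, read 1188, 913 and 814 in 2/v and 239.7, 161 and 282 in BL15598, 4.33-fold higher (log2 difference 2.11, SE 0.233, adjusted p = 0.000358). Nlg2, a neuroligin and thus of the family that binds neurexins, read 475, 545 and 607 against 128, 97.2 and 217, 3.88-fold higher (log2 difference 1.96, SE 0.273, adjusted p = 0.00161), while its 2 dimmer probe sets did not pass. Both were called in A2663/2 as well. The third, fra, a netrin receptor, differed less (log2 0.49) and lost its call without any 1 of the 6 arrays of the comparison. Among 21 ion channel genes 4 were higher and 1 lower, with a median of -0.02 (6 and 1 at an unadjusted limma p under 0.05). All 5 called genes lay outside both wild types. Against Canton S, 9 were higher and 1 lower in 2/v, with a median of 0.85 against 0.04 over all genes. Canton S was lower than BL15598 in 4 of the channel genes and higher in 0. The calcium channel gene cac was higher by 0.92 log2 units and its accessory subunit gene stol by 3.11 (adjusted p = 0.00999 and 0.00311), both by their brightest probe set and not by the mean of their probe sets, while the potassium channel gene Irk2 was lower (log2 difference -1.16, SE 0.175, adjusted p = 0.00252). With centred arrays the channel list had 2 higher genes and 1 lower. Of 34 genes of transmitters and their receptors 2 were higher and 0 lower (median 0.11, 5 and 3 at an unadjusted p under 0.05), GABA-B-R3, a metabotropic GABA receptor (log2 difference 0.70, SE 0.125, adjusted p = 0.00662), and the neuropeptide gene sNPF, of which 1 of 3 2/v arrays exceeded the control level and which was not called without it. In the list of 14 neuronal RNA-binding and transcription genes 1 was higher, acj6, where BL15598 stood apart, and 0 were lower (median -0.05, 1 and 0 at an unadjusted p under 0.05).

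Spermatocyte transcription depends on testis-specific TAFs and on the complex tMAC, and 9 of 17 such genes were called, 3 higher and 6 lower, where 6.87% and 5.66% of all genes were, with a median log2 difference of -0.19. At an unadjusted limma p under 0.05, 4 were higher and 7 lower. Caf1-55, a histone-binding subunit shared by several chromatin complexes, read 382, 375 and 401 in 2/v and 1898, 1741 and 1246 in BL15598, 4.15-fold lower (log2 difference -2.05, SE 0.164, adjusted p = 4.38e-05). A2663/2 lay between, at 817, 979 and 1035, and was called against both wild types and against 2/v. The homeobox genes achi and vis, tMAC partners that are near-identical neighbours, were called in opposite directions. The probe set named achi read 537, 505 and 576 in 2/v and 60.4, 98.8 and 111 in BL15598 (log2 difference 2.63, SE 0.335, adjusted p = 0.00092), and that named vis 3239.7, 4235 and 4083 against 6989, 6298 and 7226 (log2 difference -0.84, SE 0.124, adjusted p = 0.00232). Which of the 2 copies each probe set reports was not tested. The TAF gene mia was higher (log2 difference 0.81, SE 0.141, adjusted p = 0.00567), though not with the 6 arrays alone. Among members chosen after their values were seen, the TAF genes sa (log2 -0.61, adjusted p = 0.0152) and Taf12L (-0.52, adjusted p = 0.033) were lower, and the tMAC gene aly (0.90, adjusted p = 0.0133) was higher with BL15598 apart. The count was 2 higher and 6 lower with centred arrays. Downstream, 1 of 27 spermatid genes was lower and 0 higher (median 0.07, 2 up and 3 down at an unadjusted p under 0.05), and 0 of 17 cup and comet genes were called by limma (median 0.09, with 1 gene in each direction at an unadjusted p under 0.05).

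The lists of earlier germ cells are set against the 12.5% of all genes called, 6.87% higher and 5.66% lower. Of 16 spermatogonial and stem cell genes 1 was higher, zpg, a germline gap junction protein (log2 difference 1.14, SE 0.128, adjusted p = 0.000402), in which BL15598 stood apart. Among 12 meiosis genes SA2, a cohesin subunit, was higher (log2 difference 0.67, SE 0.121, adjusted p = 0.00681), though not with the 6 arrays alone. Of 7 Y-linked genes 1 was higher, Ppr-Y, with 2211, 2255 and 1994 in 2/v against 1274, 1297 and 1162 in BL15598 (log2 difference 0.79, SE 0.122, adjusted p = 0.00283), and all 7 together had a median of 0.37. Of the 7, 4 were higher and 0 lower at an unadjusted limma p under 0.05. Of 27 genes of the piRNA pathway, which silences transposons in the germline, 4 were lower and 1 higher (median -0.12), and 7 and 1 with centred arrays. At an unadjusted limma p under 0.05, 8 were lower and 1 higher. Of the called genes 2 lay outside both wild types and 3 could not be placed. The helicase gene spn-E was lower (log2 difference -0.59, SE 0.108, adjusted p = 0.00718) and cuff, of the nuclear piRNA cluster complex, higher (log2 difference 0.81, SE 0.143, adjusted p = 0.00591), each without a call against Canton S. In the soma, 1 of 13 hub and cyst cell genes was higher, ken, a transcriptional repressor that is also 1 of the 9 JAK-STAT genes measured (log2 difference 1.16, SE 0.166, adjusted p = 0.0018).

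The insulator and architectural protein list, other than su(Hw), held 16 measured genes, of which 1 was called, CTCF, where 12.5% of all genes were. It read 546, 619.9 and 506 in 2/v, 944, 919 and 969 in BL15598 and 483, 529 and 577 in Canton S, so that BL15598 stood apart (log2 difference -0.76, SE 0.112, adjusted p = 0.00217), and its other 2 probe sets and the mean over them did not pass. In those 2 probe sets Canton S was the bright genotype, with mean signals of 316 and 301 against 43.6 and 13.4 in BL15598 and 37.6 and 14.9 in 2/v, so the probe sets of CTCF disagree on which genotype stands apart. The other 15 members had no call. Among them mod(mdg4) and Cp190, whose proteins join Su(Hw) at the gypsy insulator, had log2 differences of 0.01 and 0.02 (adjusted p = 0.969 and 0.963). The whole list had a median of -0.01, with 2 genes in each direction at an unadjusted p under 0.05.

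Of 82 cytochrome P450 genes, enzymes that oxidise foreign compounds and hormones, 10 were higher and 6 lower, where 6.87% and 5.66% of all genes were, with a median of 0.23. At an unadjusted limma p under 0.05, 19 were higher and 14 lower. Of the called genes 9 lay outside both wild types, BL15598 stood apart in 6, and 1 was between the wild types. Cyp28d1 read 678, 572 and 721 in 2/v and 77.7, 69.9 and 113 in BL15598, 7.69-fold higher (log2 difference 2.94, SE 0.177, adjusted p = 9.75e-06), with Canton S at 97.1, 92.8 and 82.7 and A2663/2 at 910.3, 939.6 and 959. Cyp6a23 read 129, 100.0 and 71.5 against 646, 778 and 651, 7.07-fold lower (log2 difference -2.82, SE 0.243, adjusted p = 7.61e-05), and was low in A2663/2 too. The neighbours Cyp6a23, Cyp6a19, Cyp6a9 and Cyp6a20 were lower as 1 uninterrupted run of 4 measured genes on arm 2R. Their relatives Cyp6a17 and Cyp6a21, chosen after their values were seen, were higher, with mean signals of 342 and 177 in 2/v and 17.2 and 38.5 in BL15598 (adjusted p = 0.00763 and 0.00208). Close paralogs in this cluster can share probe signal, which was not tested. Of 35 glutathione S-transferase genes 4 were higher and 6 lower (median -0.10, 7 and 8 at an unadjusted limma p under 0.05). Only 3 of the called ones lay outside both wild types. BL15598 stood apart in 3, 1 was between the wild types and 3 could not be placed. GstZ2 rose from 6.91, 14.0 and 9.67 in BL15598, all below the control level, to 164, 171 and 105 in 2/v, at least 6.99-fold (log2 difference 3.87, SE 0.343, adjusted p = 9.26e-05), and its paralog GstZ1 was 2.42-fold lower (log2 difference -1.28, SE 0.142, adjusted p = 0.000371). For the P450 list the counts were 8 and 7 with centred arrays and 10 and 9 after quantile normalization, and for the transferases 3 and 7, and 4 and 6.

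Lists of other tissues and functions differed in their share of calls, against 6.87% higher and 5.66% lower over all genes. Of 19 accessory gland protein genes 0 were called by limma and 0 passed an unadjusted p of 0.05, though their median was 0.63, the summed signals overlapping as given above. Fat body genes had 3 higher and 2 lower of 13, with the greatest difference in Obp99b, an odorant-binding protein gene (562, 451 and 358 against 87.6, 58.8 and 50.6, log2 difference 2.81, SE 0.287, adjusted p = 0.000229), which was higher in A2663/2 as well. Of 17 muscle genes 1 was higher and 4 lower (median -0.24, 1 and 7 at an unadjusted limma p under 0.05). Mp20 was lower in both nulls (log2 difference -0.78, SE 0.126, adjusted p = 0.00373), while Mf was lower by its brightest probe set (-0.97) and higher by another (1.85), so it has no settled direction. The hemocyte factor gene srp was the single call of 16 in its list (log2 difference 0.91, SE 0.156, adjusted p = 0.0051), beside the hemocyte sums that did not overlap. Odorant receptor genes had 4 higher and 2 lower of 57, near the background share, and Or22b alone of them differed in both nulls. Midgut enzymes (2 and 1 of 23), pigment genes (1 and 2 of 14), immune genes (2 and 1 of 18), heat shock genes (1 and 0 of 14), clock genes (0 and 1 of 11) and ejaculatory duct genes (1 and 0 of 6) had 1 to 3 calls each. With centred arrays the counts turned to 1 and 2 for the midgut and the immune genes and to 0 and 1 for the heat shock genes. No glycolysis gene of 14 was called by limma, with 1 higher at an unadjusted p under 0.05.

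**Figure D4:**
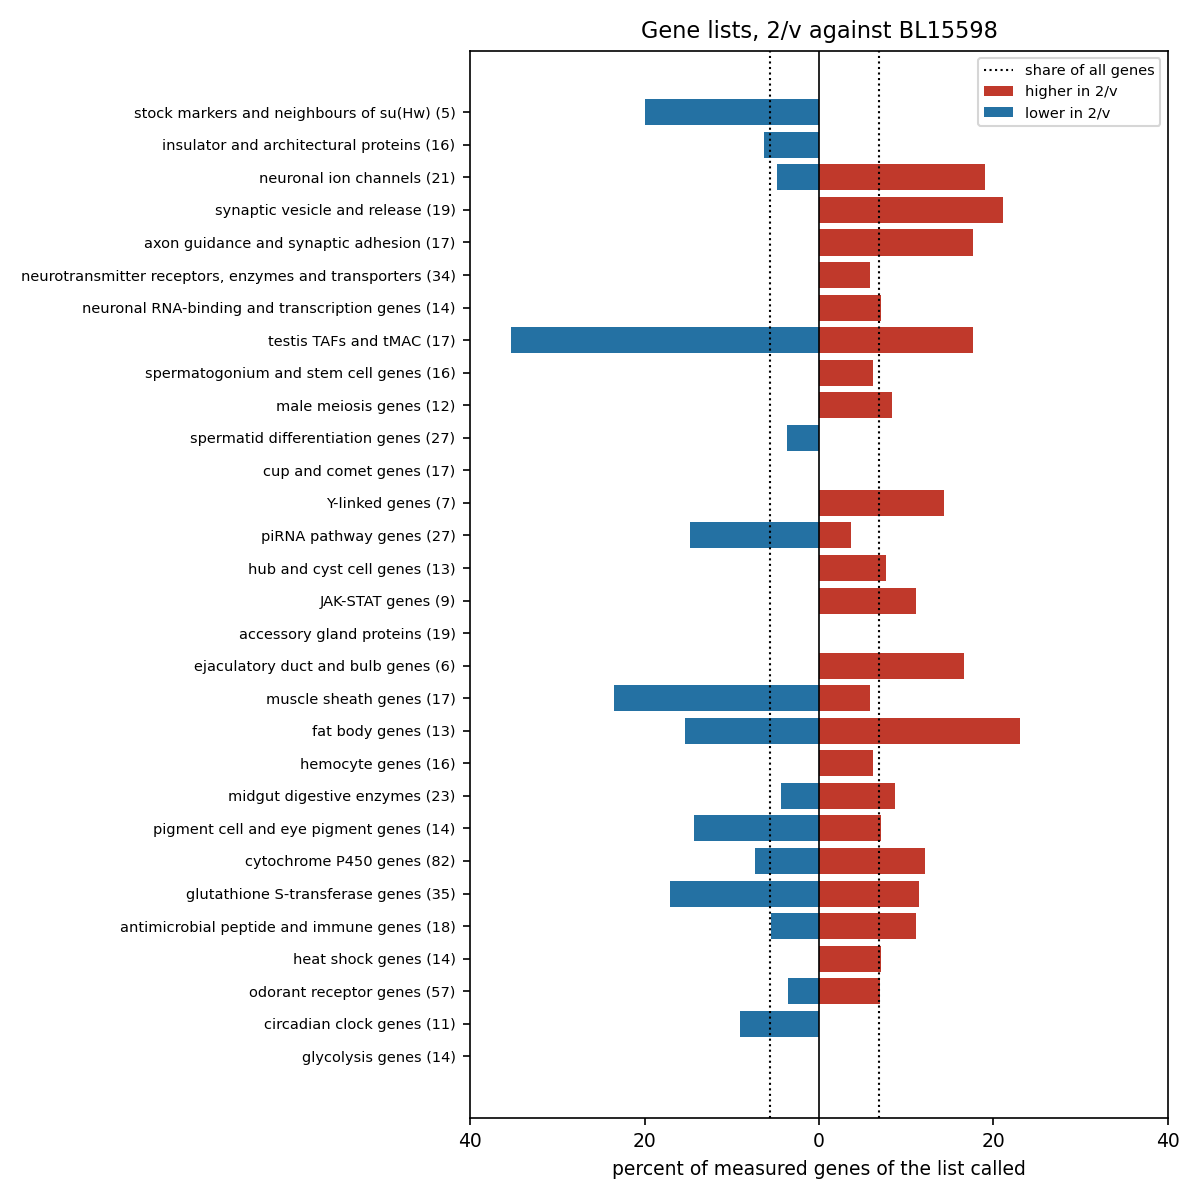
Percent of the measured genes of each list called higher (red, to the right) and lower (blue, to the left) in 2/v than in BL15598, with the number measured in brackets and dotted lines at the shares of all genes, 6.87% higher and 5.66% lower. The list of testis TAFs and tMAC reaches furthest to the left, with 6 of 17 genes, and the list of synaptic vesicles and release has 4 of 19 to the right.

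Along the chromosomes, named from the RefSeq annotation of the Release 6 assembly, calls were uneven. On the X, 152 of 1873 genes were called between 2/v and BL15598 (8.12%), against 1329 of 9950 on the second and the third chromosomes (13.4%). X genes were dimmer, with a median mean log2 signal of 8.63 against 9.14 to 9.53 on the other large arms, and their median SE was 0.213 against 0.177 to 0.188. Among the genes above the median of mean signal the shares were 9.10% and 13.5%. BL15598 stood apart in 1.60% of X genes and in 5.22% of genes on 2L. Of the 40 genes of 2/v alone, 29 lay on the third chromosome, which carries su(Hw), 11 on the second and 0 on the X, where the third chromosome holds 5318 of the 11888 measured genes with an arm. All 13 that were higher lay on the third. Their share on the third chromosome, 72.5%, was 61.0% with centred arrays and 62.5% after quantile normalization. Calls between 2/v and A2663/2 covered 1.75% of genes on 3L, 1.78% on 3R, 0.771% on 2L, 0.742% on 2R and 0.160% on the X (3 of 1873). Both nulls carry allele 2 on 1 homolog of the third chromosome and a different allele on the other, and the labels list nothing else on these chromosomes but the Amt insertion of A2663/2.

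**Figure D5:**
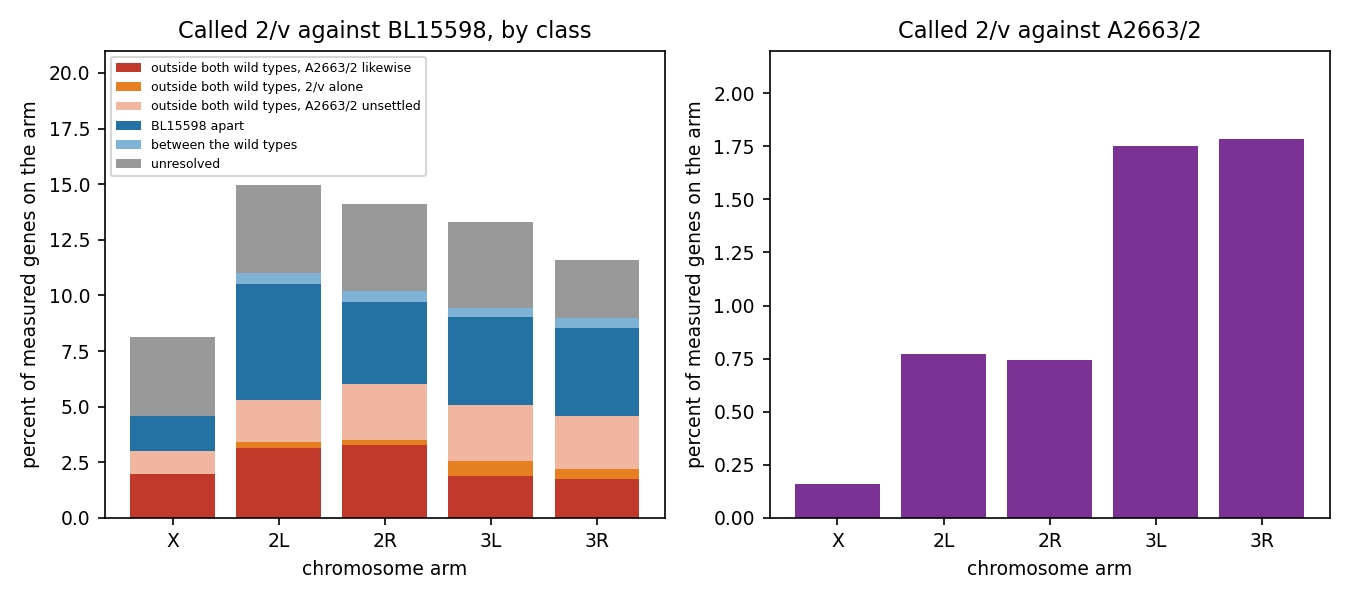
Left, percent of the measured genes of each chromosome arm called between 2/v and BL15598, stacked by kind of call. Right, percent called between 2/v and A2663/2, on an axis of smaller range. The X has the lowest bar in both, 8.12% and 0.160%, and the arms 3L and 3R of the third chromosome stand at 1.75% and 1.78% on the right.

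Around su(Hw) itself, 14 of the 100 nearest measured genes on 3R were called between 2/v and BL15598 (14.0%), against 11.5% of the rest of that arm. Of the genes next to su(Hw) and Amt, CG31321 was higher in both nulls, with 445, 466 and 422 in 2/v and 241, 153 and 229 in BL15598 (log2 difference 1.13, SE 0.200, adjusted p = 0.00626). CG42404 (log2 -0.82, adjusted p = 0.167), IFT54, of the ciliary transport machinery (0.13, adjusted p = 0.841), and Hsc70-4, a cytosolic chaperone (0.41, adjusted p = 0.0517), did not pass. Within the same 100 genes lay 3 of the 2/v-alone genes, MetRS-m, Meltrin and CG7362, against 10 among the other 2873 genes of the arm. All 3 were lower in 2/v, MetRS-m and CG7362 are named only for their place, and MetRS-m was called between the nulls in 11 of 21 fits. Runs of neighbouring genes called in 1 direction were short, with 4 runs of 4 genes and 12 of 3 over the genome.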

How the data were processed

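The deposited value table holds 1 intensity per probe set and array, linear and made by the authors. Partek 6.5 and RMA stand in the submitters' processing notes with no role given, but every array has the same 2%-trimmed mean of 1500.03 and the values are not logged, so how the deposited intensity was scaled is not settled. The number of arrays limits the precision, and the median residual SD was 1.22 log2 units in the dimmest decile of probe sets and 0.118 in the brightest. All columns of the table were used.

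The log2 values of the 18769 probe sets that are no controls (183 were) entered 1 model of 4 genotype means over 12 arrays (limma 3.58.1, R 4.3.3), with 8 residual degrees of freedom before moderation, and tests were two-sided. The fit was tested on simulated data. Probe sets were named from the platform annotation checked against RefSeq genes of Release 6 plus ISO1 MT: 13647 had 1 symbol, 402 several and 4720 none.

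The arrays' groups, 31 gene lists (611 of 754 entries measured) and members were chosen with earlier results of these data known. Genes named by rule are su(Hw), stock markers and their neighbours; per direction the 8 greatest changes without array overlap in the 2/v-alone and BL15598-apart classes and 6 in the class of both nulls; and up to 4 called genes per list by adjusted p. Genes marked in the text as chosen later are outside it. Alternatives were 2 scalings, 2 filters on dim probe sets, a trended robust prior, array weights, an offset of 16, the 6 arrays alone, the replicate number as a block, the mean of all probe sets of a gene and leaving out arrays in turn. Probe and gene sequences were not used here.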

Additional observations from a re-analysis of the deposited data

Results flagged for a closer look

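The effect against BL15598 differed between the 2 nulls in 27 of 112 named genes by 2/v minus A2663/2 in the limma fit over all 12 arrays, and 19 of them were lower and 8 higher in 2/v. Over all genes 135 of 11982 (1.13%) were called between the nulls. Most named genes were picked by their values in 2/v minus BL15598, which shares the 2/v arrays, so the 2 shares cannot be compared. Values in brackets are log2 differences of 2/v minus A2663/2. In 17 genes 2/v alone had stood apart, and since a call against A2663/2 defines that class, their values are a description and no separate test. The lower ones of these were DIP-delta (-4.94), CG33272 (-3.92), Meltrin (-1.81), CG31886 (-1.53) and GstZ1 (-0.85). In CG9825 (fitted at -6.54), Eig71Ef (-3.57), Muc30E (-2.88) and dsx-c73A (-2.13) 1 or 2 2/v arrays lay below the control level, so that these values have no order, and 2/v was at least 34.5-fold, 7.70-fold, 5.40-fold and 3.80-fold lower. The higher ones were Cpr67Fa2 (2.55), CG8301 (2.53), CG12538 (2.13), CAHbeta (2.11), CG1317 (1.92), CG34001 (1.71), tok (1.42) and CG43312 (1.15). Genes lower in both nulls, and further down in 2/v, were CG9801 (-4.14), lncRNA:CR40465 (-2.62), CG4712 (-2.24) and Caf1-55 (-1.28), and Cyp6a13 (-1.27) and Drsl3 (-2.31) were lower in 2/v as well. In mthl6 (-3.17), ppk19 (-3.02), CG13461 (-2.46) and CG5225 (-2.29) BL15598 had stood apart from Canton S, and CG13461, below the control level in all 3 2/v arrays, was at least 2.39-fold lower. Each had 3 2/v arrays on 1 side of the 3 A2663/2 arrays. The calls between the nulls rest on these same arrays, so that is no separate support. In 19 of the 27 genes the difference was called in every fit that tested it, and 8 lost it in 1 or more of 20 alternative fits. The mean over all probe sets of a gene was not among these fits.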

How the results depend on the processing

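Of 105 named genes called between 2/v and BL15598, 72 kept the call under every alternative and 33 lost it under 1 or more of 19 settings. The direction turned in 1, Mf, whose mean over all probe sets was 0.44 (adjusted p = 0.016 by limma). Over probe sets, the 6 arrays alone gave 1077 calls in place of 1997, and array weights gave 318 calls between 2/v and A2663/2 in place of 174. Leaving out 1 of the 9 arrays of 2/v, BL15598 and Canton S at a time gave 1328 to 2037 calls between 2/v and BL15598, 538 to 785 outside both wild types (799 with all arrays) and 417 to 515 with BL15598 apart (563). Leaving out 1 of all 12 gave 92 to 187 between 2/v and A2663/2, 268 to 365 in both nulls (384) and 30 to 52 in 2/v alone (53). The cause of these changes was not tested, other than that fewer arrays enter. Replicate numbers did not pair the arrays, since same-numbered arrays deviated with correlations of -0.04 to 0.09. With the replicate block, 1785, 700, 528, 122, 339 and 37 probe sets were called in the same 6 counts, in the order just given. The share of higher calls over probe sets was 58.8% as deposited, 38.9% with centred arrays and 50.2% after quantile normalization. Leaving out A2663/2 arrays, the shares by chromosome arm and the list counts under other scalings were chosen after seeing the data. The spread between arrays was 1.22 log2 units (median residual SD) in the dimmest decile of probe sets and 0.118 in the brightest, and its part in the calls was not tested.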
